A study of Mus musculus with 186 samples.

Results

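Genes of the Hippo pathway and its TEAD transcription factors were followed through the inner cells of mouse embryos. They were chosen by name and number 10 of the 55421 genes in the table, namely Tead1, Tead2, Tead4, Yap1, Wwtr1, Lats1, Lats2, Amot, Amotl2 and Nf2. All 10 passed the filter on low values that left 11680 genes for testing. In this pathway the kinases LATS1 and LATS2 phosphorylate the co-activators YAP1 and TAZ (the product of Wwtr1), which keeps them out of the nucleus. The junction proteins AMOT and AMOTL2 and the membrane protein NF2 bring the kinases to their substrate. Free of phosphate, YAP1 and TAZ enter the nucleus and switch on genes through the DNA-binding TEAD proteins. In the mouse blastocyst this happens in polarised outer cells, where TEAD4 with YAP1 turns on Cdx2 and Gata3 for the trophectoderm, whereas inner cells keep the kinases active and express Sox2.

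RNA was sequenced from single inner cells of CD-1 embryos, freed of their outer layer by immunosurgery, in which antibody and complement lyse the outer cells. The 3 fresh groups, named E3.25, E3.75 and E4.0 by embryonic day, carried no treatment and held 19, 22 and 14 cells, with 2 experiments each. The 4 cultured groups began as E2.75 morulae kept in KSOM medium for 16 h or 24 h, with either the solvent DMSO or LY294002 (LY) at 10 µM. This compound inhibits phosphoinositide 3-kinase (PI3K) and also acts on other kinases. They held 31 cells (16h DMSO), 31 (16h LY), 28 (24h DMSO) and 24 (24h LY), each from 3 experiments. An experiment is the set of cells of a group that share a collection date and pools several litters, and the embryo of each cell is not given. Each LY experiment has a DMSO experiment of the same date. Every date of the 16h cultures is later than every date of the 24h cultures and fresh stages, and no 2 fresh stages share a date, so stage or culture time and date cannot be told apart. Values are TPM, transcript abundances corrected for transcript length and scaled to a fixed total per cell, and the level of an experiment is the average of log2(TPM + 1) across its cells. The depth of a cell is unknown. Between 3806 and 10220 genes per cell (median 6584) had a TPM of 1 or more, called detected here.

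Some libraries stood apart. There were 4 pairs of cells with different titles and nearly identical profiles, with correlations of log2(TPM + 1) across genes from 0.967 to 0.983, where the next highest of all pairs was 0.915 and the median 0.754. A pair lay within the second E4.0 experiment, another joined 2 experiments of 24h LY, another 2 experiments of 24h DMSO, and the last joined a 16h DMSO cell to an E4.0 cell. Several results that rest on these 8 cells are given with and without them, and the others with them included. The first 16h DMSO experiment held 3 cells, with a mean of 9995 genes detected against 7156 and 7102 in the other two. The mean number of genes detected was 7459 at E4.0 against 6186 at E3.75 and 6235 at E3.25. It was 6832 in 16h LY against 8084 in 16h DMSO, and 5439 in 24h LY against 6454 in 24h DMSO. Cells were sequenced in 2 runs, and every experiment had cells in both.

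Marker genes of the inner cells were checked first. Sox2 was detected in 19 of 19 cells at E3.25, 17 of 22 at E3.75, 14 of 14 at E4.0, 19 of 31 in 16h DMSO, 22 of 31 in 16h LY, 17 of 28 in 24h DMSO and 12 of 24 in 24h LY. Cdx2, which marks trophectoderm, was detected in 1 of 19 cells at E3.25, 0 of 22 at E3.75 (compatible with a share of at most 13.6%), 1 of 14 at E4.0, 8 of 31 in 16h DMSO, 1 of 31 in 16h LY, 2 of 28 in 24h DMSO and 5 of 24 in 24h LY. Gata3 was detected in 3 of 19, 2 of 22, 2 of 14, 13 of 31, 8 of 31, 0 of 28 and 3 of 24 cells in the same order. The fresh groups therefore held few cells with either trophectoderm factor, and 16h DMSO held the highest share of both. The mean score of the 16 trophectoderm markers (mean log2(TPM + 1)) was 3.83 in the first 16h DMSO experiment and between 1.75 and 2.04 in the other two.

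TEAD proteins bind the motif GGAATG, and genes of the pathway are themselves known targets of it, so the starts of the 10 genes were searched for the motif on both strands (GGAATG or its complement CATTCC, which overlaps no other motif searched). The windows were 300 bases long, from 250 before to 50 after each RefSeq transcript start on GRCm38.p6. An entry exists for 8 of the genes, and Tead1 and Tead4 have none. It lay in a window of 4 of these 8 genes, beside 16.6% of the 27025 genes with an entry. Each is shown with 10 bases on either side, 5′ to 3′ along the gene, with the motif in capitals.
Wwtr1: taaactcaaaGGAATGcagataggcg
Yap1: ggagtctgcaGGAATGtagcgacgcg
Amotl2: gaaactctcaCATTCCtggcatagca
Lats2: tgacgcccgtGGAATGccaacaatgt
The Wwtr1 stretch (chr3:57576031-57576056, minus strand) starts its motif 136 bases before the transcript start, and that of Yap1 (chr9:8004722-8004747, minus strand) 141 bases before it. The Amotl2 motif (chr9:102717729-102717754, plus strand) begins 65 bases before the start, and the Lats2 motif (chr14:57746104-57746129, minus strand) 4 bases after it. Both co-activators and a member each of the AMOT and LATS families thus carry the letters near a RefSeq transcript start. The stretches of Amotl2 and Lats2 lie inside the gene spans of the GENCODE M21 annotation. These spans are chr9:102716672-102733418 and chr14:57689662-57758388, so the starts used for these 2 genes are internal to them. Among 22 known YAP targets gathered as a list, of which Amotl2 and Lats2 are members, 7 of the 15 with an entry held the motif. It was held by 12 of 31 other pathway genes with an entry (38.7%), 2 of 15 trophectoderm markers and 1 of 10 epiblast markers. A match is a run of letters, not a bound site.

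The genes lie apart on GRCm38 in the GENCODE M21 annotation, on chromosomes 7 (Tead1 and Tead2), 6 (Tead4), 9 (Yap1 and Amotl2), 3 (Wwtr1), 10 (Lats1), 14 (Lats2), X (Amot) and 11 (Nf2). All are protein coding. Wwtr1 spans chr3:57455649-57575910, Yap1 chr9:7931999-8004596, Nf2 chr11:4765845-4849536 and Tead4 chr6:128224288-128300823, all on the minus strand. Lats2 shares 42.4% of its exonic bases with Gm49361 on the same strand, and Gm49361 was detected in 0 of the 169 cells. How reads of the shared bases were assigned was not tested, which leaves some uncertainty in the values of Lats2.

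Across all 169 cells the TEAD factor Tead4 and the co-activator Wwtr1 were the most widely detected, in 92.9% and 91.1% of cells, with median levels of 27.9 and 16.4 TPM. Nf2 was detected in 79.3% and Yap1 in 77.5%, with medians of 8.8 and 6.06 TPM. Tead1 (60.9%) and Tead2 (58.6%) followed with medians of 1.78 and 2.02 TPM. Amot was detected in 36.1%, Amotl2 in 24.3%, Lats2 in 20.1% and Lats1 in 10.7% of cells, each with a median below 1 TPM. TPM is a level per transcript length, but these libraries were primed at the 3′ end, so the order between genes is approximate. Among the 11680 genes tested, the mean level of Tead4 lay above that of 83.4% and the mean level of Lats1 above that of 2.23%. The 2 kinase genes were therefore close to the limit of detection, and Lats1 passed the filter only through 16h DMSO, where 9 of 31 cells had it.

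**Figure D1:**
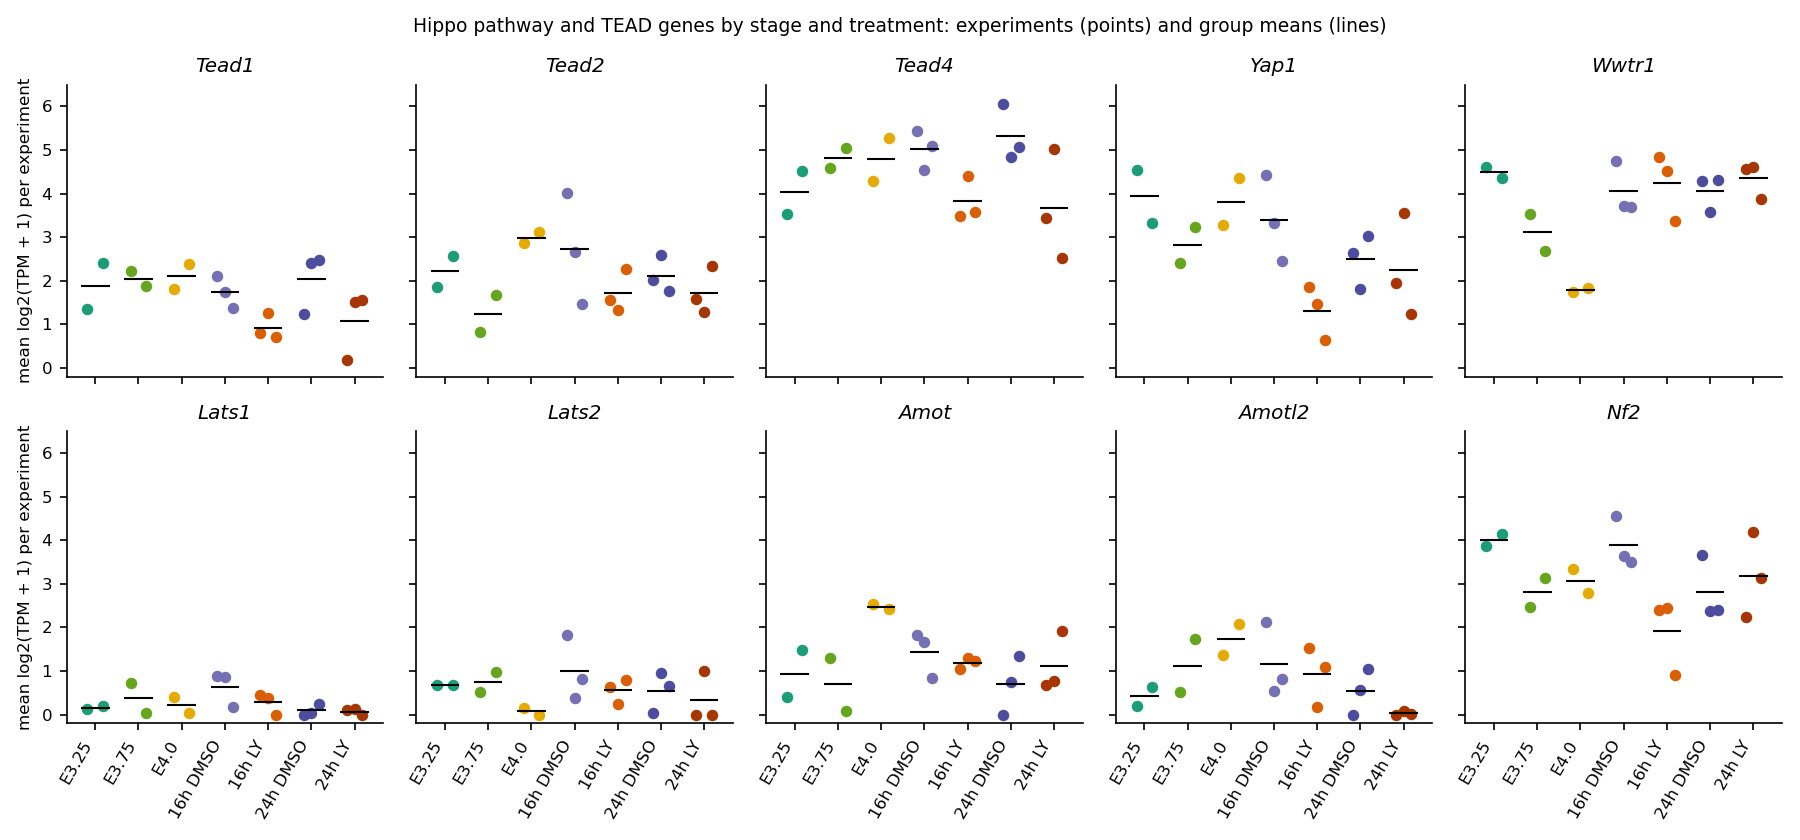
Mean log2(TPM + 1) of each gene in each of the 18 experiments (points, by group) with group means (lines). Wwtr1 lies at 1.75 and 1.84 at E4.0, below the experiments of the other groups, while Lats1 and Lats2 stay under 2 throughout.

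When the 7 group means of each gene were put in order, 5 of the 60 steps between neighbours separated their experiments without overlap. Wwtr1 had 2 of them, from 16h DMSO (4.06) down to E3.75 (3.11) and from E3.75 to E4.0 (1.80). The first of these held in sequencing run 2 (3.96 and 2.57) and turned in run 1 (3.72 and 4.10). Amot had 1, from E4.0 (2.48) to 16h DMSO (1.44), Amotl2 had 1, from E3.25 (0.43) to 24h LY (0.03), and Nf2 had 1, from E3.75 (2.81) to 16h LY (1.92). All neighbours in the orders of Tead1, Tead2, Tead4, Yap1, Lats1 and Lats2 overlapped. The same share over all genes was not computed, so these counts of steps are a description. Differences between groups were tested with limma on the experiment means over all 11680 genes, with Benjamini-Hochberg adjustment and a threshold of 0.05. No gene of the 10 passed that threshold in any of the 9 comparisons.

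The largest difference between fresh stages among the 10 genes was that of Wwtr1, which encodes TAZ. Its level was 4.62 and 4.36 log2(TPM + 1) in the 2 experiments at E3.25, 3.54 and 2.68 at E3.75, and 1.75 and 1.84 at E4.0. Both later stages lay below the earlier ones with no overlap at either step. The share of cells with Wwtr1 was 18 of 19 at E3.25 and 21 of 22 at E3.75 but 7 of 14 at E4.0 (50%, exact 95% binomial interval 23 to 77), and its median level was 22, 8.07 and 1.1 TPM at the 3 stages. The fitted difference between E4.0 and E3.25 was -2.69 ± 0.71 log2 units (SE; 95% interval -4.16 to -1.21), with a limma adjusted p of 0.0601, just outside the threshold. From E3.25 to E3.75 it was -1.38 ± 0.71 (adjusted p = 1) and from E3.75 to E4.0 -1.31 ± 0.71 (adjusted p = 0.609).

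The low level of Wwtr1 at E4.0 differed between the sequencing runs. In run 2 it was detected in 1 of 6 E4.0 cells, with a highest value of 1.49 TPM, and in run 1 in 6 of 8 cells, with a median of 7.93 TPM. Of those 8 run 1 cells, 3 belong to near-identical pairs and had 14.2, 20.6 and 21.6 TPM, the 3 highest values at this stage. With run 2 alone the difference from E3.25 was -4.17 (adjusted p = 0.00697) and with run 1 alone -1.30 (adjusted p = 0.876). Without the 8 near-identical cells it was -3.70 and passed the threshold (limma adjusted p = 0.00986), and 4 of 11 E4.0 cells had the transcript. The difference between E4.0 and E3.75 was then -2.32 (limma adjusted p = 0.202). The E3.75 difference from E3.25 was -2.31 with run 2 alone and -0.10 with run 1 alone. Both runs thus placed Wwtr1 lower at E4.0 than at E3.25, but by different amounts, and the part of the run was not tested.

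**Figure D2:**
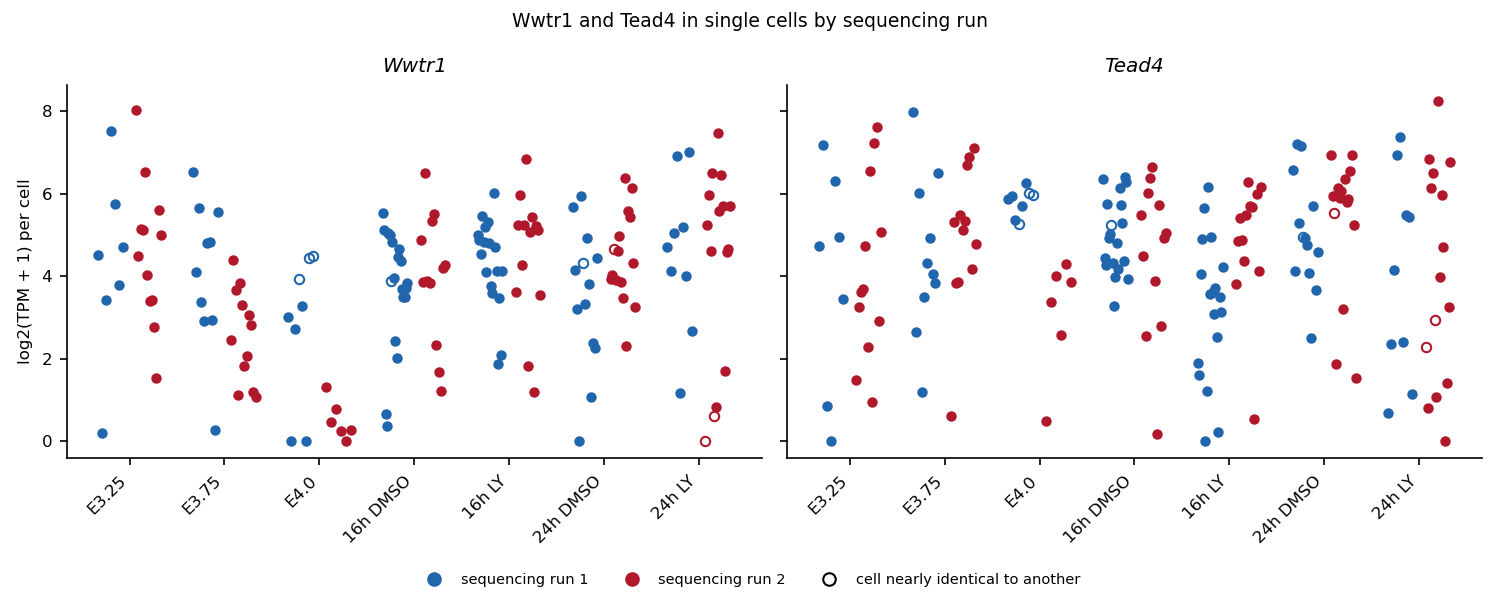
Level of Wwtr1 (left) and Tead4 (right) in every cell as log2(TPM + 1), by group and sequencing run, with cells of near-identical pairs as open circles. At E4.0 the 6 cells of run 2 lie at or below 1.49 TPM for Wwtr1 and at or below 18.8 TPM for Tead4, and the 8 cells of run 1 lie at or above 37.7 TPM for Tead4.

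The other co-activator, Yap1, did not fall at both steps. It stood at 4.54 and 3.33 log2(TPM + 1) at E3.25, 2.40 and 3.23 at E3.75, and 3.27 and 4.35 at E4.0. E3.75 lay below both other stages with no overlap. The fitted difference was -1.12 ± 0.86 from E3.25 to E3.75 and 1.00 ± 0.86 from E3.75 to E4.0, and neither passed the threshold. E4.0 overlapped E3.25, and the fitted difference between them was -0.13 ± 0.86 (95% interval -1.91 to 1.66, adjusted p = 0.974). Yap1 was detected in 16 of 19, 18 of 22 and 13 of 14 cells at the 3 stages.

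Of the TEAD genes, Tead4, the factor required for trophectoderm, was the most abundant at every stage. It stood at 3.54 and 4.51 at E3.25, 4.59 and 5.05 at E3.75, and 4.29 and 5.28 at E4.0, a difference of 0.76 ± 0.80 between E4.0 and E3.25 (adjusted p = 0.762). Within E4.0 the runs did not overlap, with 37.7 to 75.5 TPM in the 8 cells of run 1 and 0.41 to 18.8 TPM in the 6 of run 2. The mean number of genes detected in these cells was 7689 in run 1 and 7005 in run 2. Tead2, a TEAD factor of early embryos, was at 1.86 and 2.58 at E3.25, 0.82 and 1.68 at E3.75, and 2.86 and 3.13 at E4.0. E4.0 was highest and E3.75 lowest with no overlap, and the difference between those 2 stages was 1.74 ± 0.77 (adjusted p = 0.457), or 1.99 without the near-identical cells. Tead1 lay between 1.36 and 2.41 in the 6 fresh experiments, and its stages overlapped in all 3 comparisons.

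The scaffold genes Amot and Amotl2 were found in a larger share of E4.0 cells, which also had the highest number of genes detected among fresh stages. Amot, which holds YAP1 at the membrane and in inner cells activates LATS kinases, was detected in 4 of 19 cells at E3.25 and 5 of 22 at E3.75 but in 11 of 14 at E4.0 (78.6%, exact 95% interval 49.2 to 95.3). Outside the near-identical pairs it was detected in 10 of 11 E4.0 cells. Its level was 0.40 and 1.48 log2(TPM + 1) at E3.25, 1.31 and 0.08 at E3.75, and 2.53 and 2.43 at E4.0. Both E4.0 experiments were above the 4 earlier ones, and the difference was 1.78 ± 0.61 against E3.75 (adjusted p = 0.239) and 1.54 ± 0.61 against E3.25 (adjusted p = 0.275). Against E3.75 the difference was 1.93 with run 1 alone, 1.76 with run 2 alone and 2.32 without the near-identical cells (adjusted p = 0.0773), but 1.17 without the second E3.75 experiment (adjusted p = 0.844). Against E3.25 it was 1.19 and 1.76 by run, 1.00 without the first E3.25 experiment (adjusted p = 0.601) and 0.49 when computed from the mean TPM over cells (adjusted p = 0.915). With the number of genes detected as a covariate the 2 differences were 1.60 and 1.36. The sign held in these settings and the size did not.

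Amotl2, a relative of Amot and itself a YAP target, was at 0.21 and 0.64 at E3.25, 0.52 and 1.73 at E3.75, and 1.38 and 2.08 at E4.0. It was detected in 1 of 19, 6 of 22 and 9 of 14 cells at these stages. The difference between E4.0 and E3.25 was 1.31 ± 0.55 (adjusted p = 0.312), with no overlap between the experiments. With run 1 alone it was 0.56, with run 2 alone 2.04 and without the near-identical cells 1.67. With the number of genes detected as a covariate it was 0.84 (adjusted p = 0.459), and the difference from E3.75 went from 0.61 to 0.13. Nf2, the upstream membrane protein also called Merlin, was at 3.87 and 4.15 at E3.25, 2.48 and 3.13 at E3.75, and 3.35 and 2.80 at E4.0. Both later stages were below E3.25 with no overlap, with differences of -1.20 ± 0.79 and -0.94 ± 0.79 that did not pass the threshold (adjusted p = 1 and 0.681). The kinase Lats2 was detected in 3 of 19 and 5 of 22 cells at the earlier stages and in 0 of 14 at E4.0, compatible with a share of at most 21.4%, and Lats1 was detected in 1, 4 and 1 cells at the 3 stages. Neither kinase could be compared between stages at this level of detection.

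In counts, 0 of the 10 genes passed the threshold between E4.0 and E3.25, beside 1.67% of all genes, and 3 had an unadjusted limma p under 0.05 (Wwtr1, Amot and Amotl2), beside 12.9%. The experiments did not overlap for 3 genes higher at E4.0 (26.4% of all genes) and for 3 lower (15.2%). Between E4.0 and E3.75, 0 of 10 passed (1.41%) and 2 had an unadjusted p under 0.05 (9.49%). There 3 were higher (27.9%) and 2 lower (8.27%) with no overlap. The lower genes included Lats2 in both of these comparisons, although it was detected in 0 of 14 cells at E4.0 and could not be compared. Between E3.75 and E3.25, 0 of 10 passed (0%), 0 had an unadjusted p under 0.05 (4.59%), and 1 was higher (11%) and 4 lower (19.7%) with no overlap. The median difference of the 10 genes was 0.14, 0.16 and -0.09 in these comparisons, beside 0.20, 0.29 and -0.09 over all genes.

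**Figure D3:**
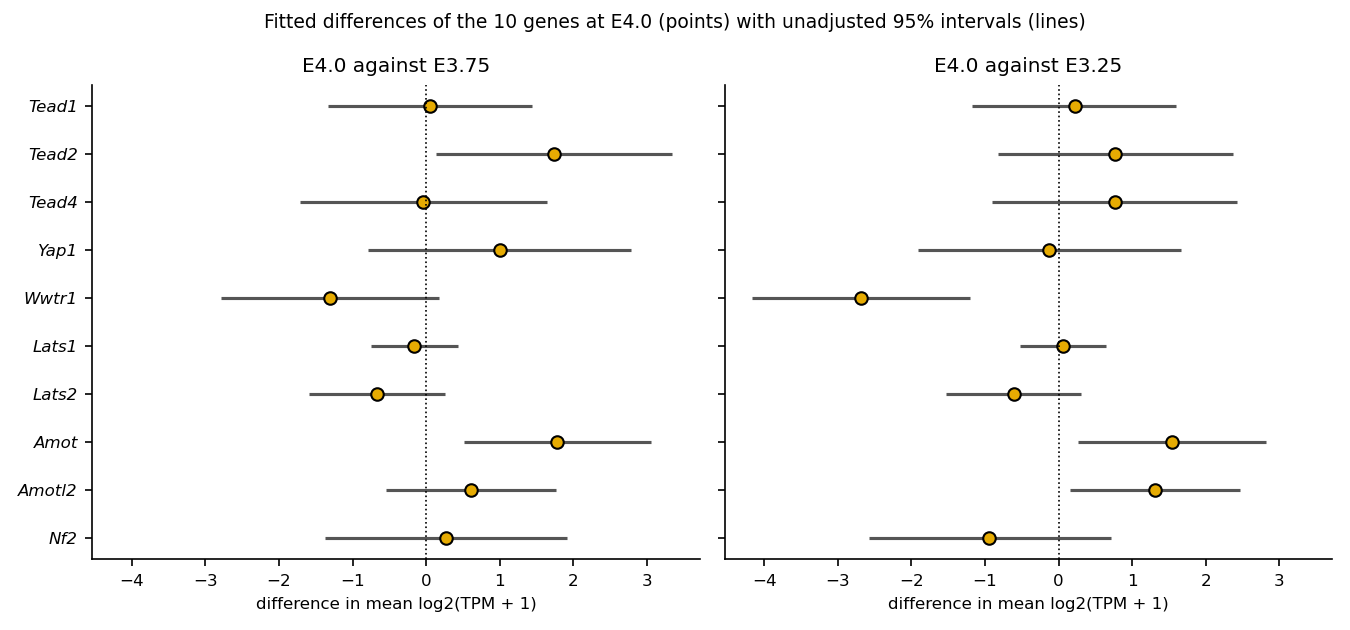
Fitted difference of each gene at E4.0 from E3.75 (left) and from E3.25 (right) in mean log2(TPM + 1), with 95% intervals that are not adjusted for the number of genes. The interval of Wwtr1 against E3.25 runs from -4.16 to -1.21, and those of Amot lie above 0 in both panels.

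Among 37 other pathway genes gathered as a list, 26 were tested, and 2 rose and 0 fell between E3.75 and E4.0, beside 157 that rose and 8 that fell among all 11680 genes. Stk4, the gene of the MST1 kinase that activates LATS kinases, was at 0.56 and 0.25 log2(TPM + 1) at E3.75 and 2.95 and 3.21 at E4.0, a rise of 2.68 ± 0.58 (limma adjusted p = 0.0193), and was detected in 4 of 22 and 12 of 14 cells. Against E3.25 (0.74 and 1.56) its difference was 1.93 ± 0.58 (adjusted p = 0.113). Ptpn14, a phosphatase that binds YAP1 and is also a YAP target, was detected in 0 of 19 cells at E3.25, 0 of 22 at E3.75 and 7 of 14 at E4.0, and rose by 1.06 ± 0.24 against E3.75 (adjusted p = 0.0285) and by 1.10 ± 0.24 against E3.25 (adjusted p = 0.0194). It passed the filter on low values through E4.0 alone, the group in which it was high, and so had to differ.

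Of the 22 YAP targets, 12 were tested, and 2 rose and 0 fell against either earlier stage, Ptpn14 and Myof. Against E3.25, 164 of all 11680 genes rose and 31 fell. Myof, which codes for the membrane repair protein myoferlin, was at 0.06 and 0.00 at E3.25, 0.24 and 0.00 at E3.75, and 1.70 and 2.34 at E4.0. It rose by 1.90 ± 0.23 from E3.75 (limma adjusted p = 4.41e-05) and by 1.99 ± 0.23 from E3.25 (adjusted p = 3.19e-05). It was detected in 7 of 14 cells at E4.0, 1 of 22 at E3.75 and 0 of 19 at E3.25, and passed the filter through E4.0 alone, as Ptpn14 did. When only the groups compared were fitted, none of these calls held, with an adjusted p of 0.765 for Stk4, Ptpn14 and Myof against E3.75, and of 0.434 for Ptpn14 and 0.398 for Myof against E3.25. With run 1 alone none of the 3 genes passed against E3.75 (adjusted p of 0.0866 for Myof, 0.568 for Stk4 and 0.746 for Ptpn14), with differences of 1.92, 2.34 and 1.07. Without the near-identical cells all 3 passed against E3.75, at 2.02, 2.52 and 1.39. Leaving out either E3.75 experiment ended the call of Stk4 (adjusted p = 0.106 and 0.196) and of Ptpn14 (0.196 and 0.135), as did leaving out the second E4.0 experiment for Stk4 (0.108) and the first for Ptpn14 (0.172). The classic targets Ccn1 and Ccn2 were tested and did not pass in these comparisons.

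Of 20 polarity and junction genes, 0 passed in any comparison. Of the 3 genes that TEAD4 governs in the embryo, 0 passed among the fresh stages. Sox2 stood at 3.42 and 4.04 at E3.25, 3.07 and 3.01 at E3.75, and 3.63 and 4.42 at E4.0, lowest at E3.75 with no overlap. The primitive endoderm markers moved with stage beside these genes. Between E3.75 and E4.0 all 12 had a difference above 0, beside 7887 of all 11680 genes. Past the threshold 5 rose, namely Sox7, Foxa2, Amn, Dab2 and Srgn. Of these, Dab2 was lower at E3.75 (0.22) than at E3.25 (2.12). The summed level of the 12 ran from 27.3 to 1920 TPM over cells at E4.0. It ran from 12.9 to 520 at E3.75 and from 20.7 to 766 at E3.25. Foxa2 was in no cell of either earlier stage and Sox7 in none at E3.25. Of 12 epiblast markers, 2 rose as well. Markers that passed the filter on low values through E4.0 alone had to differ, and how many of these did so was not counted. The mean score of the trophectoderm markers, like the level of Wwtr1, was highest at E3.25 (2.08), and was 1.51 at E4.0 and 1.28 at E3.75. Of the 14 tested, 13 were below 0 between E3.25 and E3.75 and 10 between E3.25 and E4.0, beside 6524 and 4581 of all genes, and 0 passed in either. In the second comparison 5 had an unadjusted limma p under 0.05, of which Krt8 (difference -2.72), Tfap2c (-2.92), Aqp3 (-1.72) and Krt18 (mean level 1.38 at E4.0, 4.38 at E3.25) were lower at E4.0 and Lgals3 (difference 2.35) higher, all without overlap. The summed level of the 16 ran from 89.3 to 1830 TPM over cells at E3.25, 28 to 627 at E3.75 and 49.8 to 574 at E4.0, with Elf5 in no cell of these stages, Cdx2 in none at E3.75, Tfap2a in none at E3.25 or E4.0 and Id2 in none at E3.75 or E4.0. The part of cell makeup in the levels of the 10 genes was not tested.

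**Figure D4:**
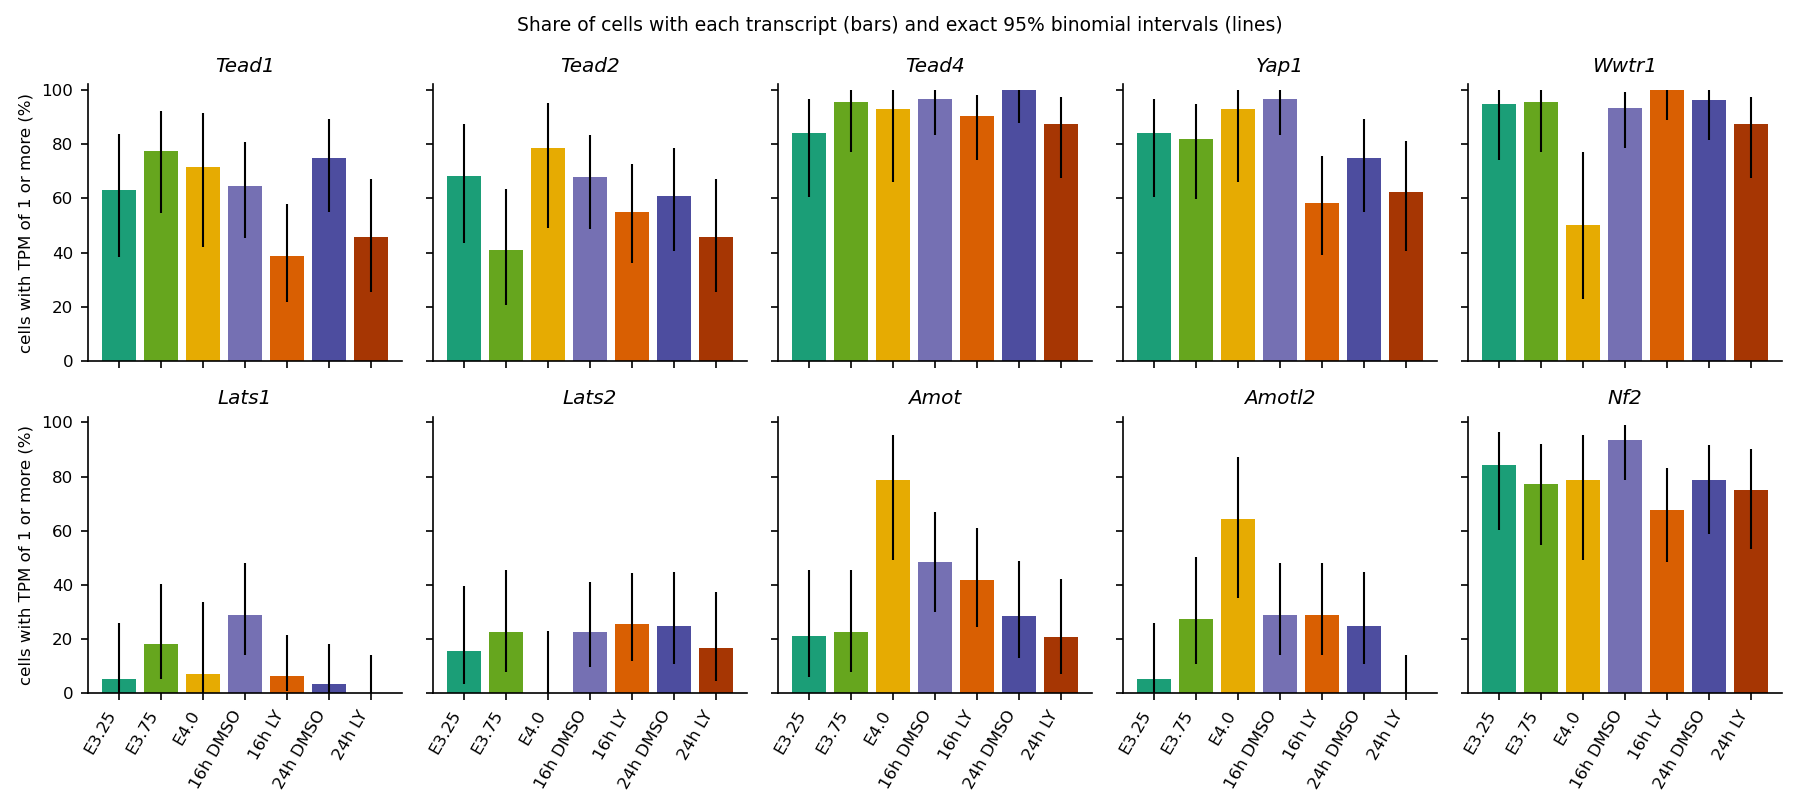
Share of cells with a TPM of 1 or more for each gene and group (bars) with exact 95% binomial intervals (lines). Wwtr1 is at 50% at E4.0 and at 87.5% or more elsewhere, while Amot (78.6%) and Amotl2 (64.3%) are highest at E4.0.

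The second question of the design was what inhibition of PI3K did. After 16 h, Yap1 and Nf2 were the 2 genes of the 10 with the largest differences, both lower with LY. Yap1 stood at 4.42, 3.32 and 2.45 log2(TPM + 1) in the 3 DMSO experiments and at 1.85, 1.46 and 0.64 in the LY experiments of the same dates. Every LY experiment was below every DMSO experiment. The difference was -2.08 ± 0.70 (95% interval -3.54 to -0.62), and did not pass the threshold (limma p = 0.00735, adjusted p = 0.818). Cells with Yap1 numbered 30 of 31 with DMSO and 18 of 31 with LY, and cells with 10 TPM or more 12 and 1.

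Nf2 stood at 4.55, 3.63 and 3.50 with DMSO and at 2.41, 2.45 and 0.90 with LY, again without overlap. Its difference was -1.97 ± 0.65 (95% interval -3.31 to -0.63; limma p = 0.00607, adjusted p = 0.809). Cells with Nf2 numbered 29 of 31 with DMSO and 21 of 31 with LY. Both differences were found in each run, for Yap1 -1.91 in run 1 and -2.35 in run 2, and for Nf2 -2.10 and -1.46. Without the near-identical cells they were -2.08 and -1.91. Without the first 16h DMSO experiment, the one with 3 cells and the highest level of all 10 genes within its group, they were -1.57 and -1.64 (both adjusted p = 1). With the number of genes detected as a covariate they were -1.41 and -1.54 (both adjusted p = 1). Fitted with the date as a block they were the same size, with adjusted p of 0.32 and 0.334.

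The TEAD genes lay lower with LY after 16 h and did not pass. Tead4 was at 5.44, 4.53 and 5.09 with DMSO and 3.49, 4.41 and 3.57 with LY, which did not overlap, and the difference of -1.20 ± 0.66 (adjusted p = 0.854) was -2.29 in run 1 and turned to 0.34 in run 2. Tead1 was at 2.11, 1.74 and 1.38 with DMSO and 0.81, 1.27 and 0.72 with LY, a difference of -0.81 ± 0.54 (adjusted p = 0.855) with no overlap. Tead2 overlapped between the arms, with a 95% interval of the difference from -2.31 to 0.31. Wwtr1 showed the opposite sign to Yap1, at 4.75, 3.72 and 3.70 with DMSO and 4.83, 4.51 and 3.37 with LY. Its arms overlapped, the difference was 0.18 ± 0.58 (95% interval -1.02 to 1.39, adjusted p = 0.963), and it was detected in 29 of 31 and 31 of 31 cells. Lats1, Lats2, Amot and Amotl2 had differences between -0.45 and -0.23 with overlapping arms.

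**Figure D5:**
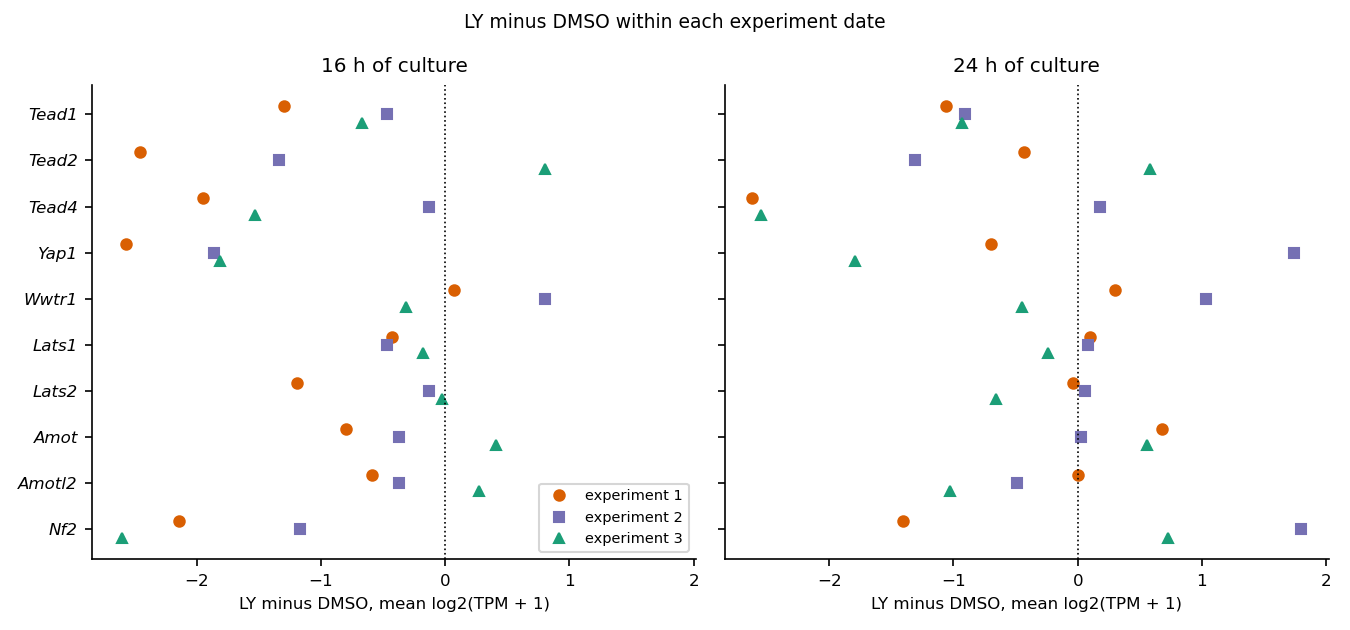
LY minus DMSO in mean log2(TPM + 1) within each experiment date, for 16 h (left) and 24 h (right) of culture. At 16 h Yap1 and Nf2 lie below -1 on all 3 dates, and at 24 h their dates lie on both sides of 0.

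After 24 h neither of these genes stood apart. Yap1 was at 2.64, 1.82 and 3.03 with DMSO and 1.94, 3.56 and 1.24 with LY, with the arms overlapping and a difference of -0.25 ± 0.70 (95% interval -1.71 to 1.21). Nf2 was at 3.67, 2.38 and 2.41 with DMSO and 2.25, 4.19 and 3.14 with LY, a difference of 0.37 ± 0.65 (95% interval -0.97 to 1.72). The second date was the one on which both were higher with LY, by 1.74 and 1.80. The LY difference at 24 h less that at 16 h was 2.34 ± 0.91 for Nf2 (limma p = 0.018, adjusted p = 1) and 1.83 ± 0.99 for Yap1 (p = 0.0791, adjusted p = 1), so a difference between the culture times was not shown.

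Tead4 had the largest difference at 24 h. It was at 6.06, 4.84 and 5.07 with DMSO and at 3.44, 5.02 and 2.52 with LY, a difference of -1.66 ± 0.66 (95% interval -3.03 to -0.30; limma p = 0.0193, adjusted p = 0.899). The arms overlapped because of the second date, on which LY was higher by 0.18, while the other dates had -2.62 and -2.55. Without that LY experiment the difference was -2.34 (adjusted p = 0.335), and without the near-identical cells -1.57. Cells with 10 TPM or more numbered 24 of 28 with DMSO and 13 of 24 with LY, and the highest cells were at 148 and 301 TPM. Computed from the mean TPM over cells, the difference was -0.48, and the mean level over cells was 53.9 TPM with DMSO and 50.3 with LY. Tead1 was lower with LY on all 3 dates at 24 h as at 16 h. At 24 h its differences were -1.06, -0.91 and -0.93, with a fitted difference of -0.97 ± 0.54 (limma adjusted p = 0.899). The share of all genes lower on every date was not computed. Amotl2 was detected in 7 of 28 DMSO cells and in 0 of 24 LY cells, compatible with a share of at most 12.5%, and its levels of 0.00, 0.57 and 1.05 with DMSO and 0.00, 0.08 and 0.02 with LY overlapped. The 24 h difference of Wwtr1 was 0.29 ± 0.58 (95% interval -0.91 to 1.50).

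With LY against DMSO, 0 of the 10 genes passed at 16 h (0% of all genes) and at 24 h (0%), and in the difference between the culture times (0%). At 16 h 2 had an unadjusted limma p under 0.05 (5.49% of all genes), and 4 were lower (8.84%) and 0 higher (1.35%) with no overlap. At 24 h 1 had an unadjusted p under 0.05 (5.27%), and 0 were lower (8.64%) or higher (2.26%) with no overlap. Of the 10 genes, 9 were below 0 at 16 h with a median of -0.63, beside 8922 of 11680 and -0.33 over all genes. At 24 h 7 were below 0 with a median of -0.23, beside 7854 and -0.20. Of the other pathway genes, the YAP targets, the polarity genes and the 3 TEAD4 genes, 0 passed at either time. Cdx2 was at 1.39, 0.31 and 1.08 with DMSO and 0.09, 0.25 and 0.05 with LY at 16 h, a difference of -0.80 ± 0.29 without overlap (adjusted p = 0.854). Of the trophectoderm markers 13 of 14 tested, 11 of 12 epiblast markers and 10 of 12 primitive endoderm markers were below 0 at 16 h and 0 of each list passed. The summed level of the 16 trophectoderm markers ran from 39.2 to 1950 TPM over DMSO cells and from 45.2 to 1090 over LY cells, with Elf5 in no cell of either arm and Tfap2a in no LY cell. These lists, and the genes detected, moved with LY beside Yap1 and Nf2. Apart from the fit with the number of genes detected as a covariate, given above, their part was not tested.

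In DMSO alone, the cultured cells were set beside each other and beside fresh stages. From 16 h to 24 h, 0 of 10 passed (0.00856% of all genes), 1 had an unadjusted limma p under 0.05 (Lats1, -0.55 ± 0.23, adjusted p = 0.402; 10.9% of all genes), and 0 were higher (2.16%) or lower (14.3%) with no overlap. Lats1 was detected in 9 of 31 cells at 16 h and 1 of 28 at 24 h, and as it passed the filter through 16h DMSO alone, it had to differ in this direction. Against E3.25, 16h DMSO had 0 of 10 past the threshold (0.0514%) and 0 with an unadjusted p under 0.05 (13.7%), and Tead4 was the 1 gene higher with no overlap (23.2%), by 1.00 ± 0.73 (adjusted p = 0.545), with 0 lower (6.93%). Against E3.75, 24h DMSO had 0 of 10 past the threshold (0%) and 0 with an unadjusted p under 0.05 (3.17%). Wwtr1 (0.95 ± 0.65) and Tead2 (0.87 ± 0.70) were the 2 higher with no overlap (12.5%), with 0 lower (5.49%). By run, Wwtr1 was at 3.50 in 24h DMSO and 4.10 at E3.75 in run 1, the opposite direction, and at 4.46 and 2.57 in run 2. Wwtr1 stayed between 3.37 and 4.83 in all 12 cultured experiments, above both E4.0 experiments.

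Among the 45 pairs of the 10 genes, the pair that varied most alike over the 18 experiments was Yap1 and Nf2, with a Pearson correlation of 0.73 and a Spearman correlation of 0.75. Tead2 and Amot followed at 0.56, and Wwtr1 and Amotl2 were the most opposed at -0.46. The experiments share runs and differ in genes detected, with which Amotl2 correlated at 0.72, Lats1 at 0.62, Yap1 at 0.48, Nf2 at 0.33 and Wwtr1 at -0.01. These are descriptions over 18 points.

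The genes most like each of the 10 over the same 18 experiments were picked as the 3 highest Pearson correlations among all genes tested, a choice that makes them high. Wwtr1 was most like Pttg1ip (0.92), Tmem41b (0.88) and Pld3 (0.87). Tead1 was most like the primitive endoderm marker Pdgfra, a growth factor receptor gene (0.90), then Arhgef18 (0.83) and Mta2 (0.82). Yap1 was most like Strap, Rcc1 and Igf2bp1 (each 0.85) and Nf2 most like Psme3 (0.81), Arf3 (0.80) and Stip1 (0.78). Tead4 went with Prmt5 (0.82), Smyd5 and Pdhx (both 0.81), and Tead2 with Rrm1 (0.86), Wdr25 (0.82) and Tbc1d2b (0.81). Amotl2 went with Men1 (0.91), Trmt12 and Bex2 (both 0.90), and Amot with Rex2, Gm12758 (both 0.87) and Copa (0.85). For the sparse kinases the nearest were Gm10323 (0.89), Ube2l3 and Slc25a46 (both 0.87) for Lats1, and CAAA01066123.1 (0.84), Snord35a and Tab1 (both 0.83) for Lats2. No gene of the 10 was among the 3 nearest of another.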

How the data were processed

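The authors deposited 1 table of TPM values for 170 cells. They named STAR 2.7.9a, RSEM 1.3.3, cutadapt 2.9, bcl2fastq 2.20.0 and build mm10, per the submitters' processing notes, and settings and annotation are not given in the sources used here. Of 186 labelled samples, 16 had no matching column and were not analysed here. A suffix pair at E3.25 (correlation 0.824, highest other 0.783) was averaged, which left 169 cells; its columns came from both runs and it counts under run 1. Another in 24h LY (0.594, highest other 0.724) was kept as 2 cells. The 92 spike-in rows were left out.

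Experiment means of log2(TPM + 1) were fitted with limma 3.58.1 in R 4.3.3 (7 groups together, trend, 11 residual degrees of freedom) over genes with a TPM of 1 or more in 25% of the cells of a group, and checked on simulated data. A difference on this scale understates the change of low genes. LY and DMSO experiments pair by date label: their deviations correlated at 0.393, 0.121 and 0.317 at 16 h and 0.231, 0.12 and 0.0732 at 24 h. Pairs of different dates ran from -0.38 to 0.0623 at 16 h and from -0.21 to 0.112 at 24 h. The lowest same-date value at 24 h lay within that range. Deviations were taken from the mean of each group and sum to 0, so same-date and different-date values are not independent. The p-values measure the spread between experiments. Intervals on shares of cells are Clopper-Pearson, the highest share given beside 0 cells is 3 cells of the total, and both cover counting error only.

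The 10 genes and the lists were chosen with earlier results of these data known. Named beside them are list genes past the threshold (at most 6 per list and comparison), Cdx2, Gata3 and Sox2, and the 3 genes most correlated with each. Ccn1 and Ccn2 were named after their values were seen. Alternatives changed the pseudocount, filter, scaling, averaging, weights, covariate, runs, block, groups fitted and experiments kept. Setting aside near-identical cells was added after seeing the data.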

Additional observations from a re-analysis of the deposited data

How the results depend on the processing

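Of 181 recomputed counts of the 10 genes past the threshold, 174 equalled the main count of 0. The other 7 were a count of 1 between E4.0 and E3.25, each time Wwtr1: with a pseudocount of 0.1 (-3.86, adjusted p = 0.0395), no filter on low values (-2.69, 0.0292), run 2 alone (-4.17, 0.00697), quantile normalization (-2.93, 0.012), genes detected as a covariate (-3.09, 0.0156), experiments weighted by their cells (-2.69, 0.0438) and without the near-identical cells (-3.70, 0.00986). Over all 18 alternatives its adjusted p ran from 0.00697 to 0.876. Leaving out 1 experiment at a time, which left 1 experiment in a stage, gave differences of -2.82 to -2.56. Of the 90 differences of the 10 genes, 47 turned sign under at least 1 alternative and 1, that of Wwtr1 just given, passed the threshold under at least 1. With the date as a replicate block, Yap1 at 16 h had the same difference of -2.08 (limma adjusted p = 0.32), and pairing changed no call.

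The rise of Stk4 passed in 12 of 18 alternatives, of Ptpn14 in 10 of 18 against E3.75 and 11 of 18 against E3.25, and of Myof in 16 of 18 in both, and each of these calls was lost when only the groups compared were fitted (adjusted p from 0.398 to 0.765). Leaving out an experiment gave adjusted p from 0.0357 to 0.196 for Stk4, 0.000983 to 0.196 and 0.000704 to 0.155 for Ptpn14, and 1.6e-06 to 0.00314 and 8.78e-07 to 0.00162 for Myof. Ptpn14 and Myof passed the filter on low values through E4.0 alone, so these counts and p-values are not independent support for their rise. The 2 experiments per fresh stage limit every call, and TPM keeps no depth.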

Other observations

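Within groups, each of the 10 genes was set beside the scores of trophectoderm, epiblast and primitive endoderm markers over cells, 210 correlations in all, given as descriptions. Cells of a group share runs and dates. At E4.0 Amotl2, a YAP target and scaffold gene, had a correlation of 0.67 with the primitive endoderm score over 14 cells, 0.64 over the 11 cells outside near-identical pairs, 0.61 over the 8 of run 1 and 0.89 over the 6 of run 2, beside -0.28 at E3.25 and 0.06 at E3.75. Amotl2 was detected in 1 of 19 cells at E3.25 and 6 of 22 at E3.75, so those 2 values rest on few cells. At E4.0 it had -0.39 with the epiblast score, which was -0.99 in run 2 and 0.46 in run 1. At E3.25 Nf2 had -0.67 with the primitive endoderm score over 19 cells, and Tead4 and Amot both had 0.59. At E3.75 these were 0.47 for Nf2 (0.71 and 0.33 by run), 0.22 for Tead4 and -0.44 for Amot (-0.28 and -0.69 by run), so the signs of Nf2 and Amot turned between the stages. Amot was detected in 4 of 19 cells at E3.25 and 5 of 22 at E3.75, so its correlations rest on few cells. Yap1 had 0.61 with the trophectoderm score at E4.0. Wwtr1 had -0.18 with the primitive endoderm score and 0.13 with the epiblast score at E4.0. Over the 11 cells outside near-identical pairs these were -0.12 and -0.14. At 24 h, Lats1 had 0.82 with the primitive endoderm score over 28 DMSO cells, of which 1 had the transcript.

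The near-identical pair that carried the labels 16h DMSO and E4.0 had 96.1 and 89.2 TPM of Nf2, the highest value of that gene in each of those groups, and 50.1 and 44.3 TPM of Tead2. Gata4 and Sox17 were at 0 in both cells. Which label holds for either cell was not tested.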
